A study of Gallus gallus with 15 samples.

Results

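White polychromatic illumination throughout incubation (White) was compared with incubation in the dark (Control) in the hypothalamus of Ross 308 broiler chicks at day of hatch (DOH). The comparison rested on the 8 libraries whose labels give one of these treatments, 4 White (replicates 1, 3, 6 and 7) and 4 Control (replicates 4, 5, 6 and 8), of the 15 libraries of the series. The other 7 libraries came from eggs under green monochromatic illumination, either for the entire incubation (Green, n = 3) or for its last 3 days (G3D, n = 4), and served to estimate the spread and to place the White values. All White and Control libraries are labelled as male and as a lysate of the hypothalamus, with no genetic modification, and RNA came from one hemisphere of the hypothalamus. The eggs were incubated over several trials with the lamps kept apart by light-proof dividers. As the labels give neither a trial nor a tray, the effect of the light and that of the compartment cannot be told apart, and p-values measure the spread between these chicks.

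The avian hypothalamus receives light directly, since photoreceptors in the deep brain sense light that passes through the skull, and light also reaches the embryo through the eggshell. Its peptide neurons control growth, appetite and prolactin release. The white light group serves in such a design to separate the effect of green wavelengths from the effect of illumination as such. The comparison here therefore asks which transcripts differ when light of all visible wavelengths replaces darkness, and whether the White chicks resemble each other in these differences.

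Libraries were made by bulk MARS-Seq, which counts the 3′ ends of transcripts with molecular tags. The total count was between 6066732 and 9501555 in Control and between 3944530 and 8077895 in White. Values are given in CPM, the counts of a gene per 1000000 counts of the library, scaled between libraries, and fold changes are White over Control on the log2 scale from edgeR's quasi-likelihood test. Only 568 of the 10475 genes tested (5.42%) could be given a symbol, all of them genes that the study itself had listed in one of its comparisons of these libraries. The symbols are therefore enriched for genes that differ between the groups, and their count or direction is not independent evidence. Among the 100 genes with the smallest p, 20 had a symbol. The other genes are given by Ensembl identifier only.

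One White library stood apart from the other 7. White 6 had the lowest total count (3944530) and correlated with the other libraries at a median r of 0.947 over log2 CPM (0.940 to 0.953). The median r of each of the other libraries was between 0.955 and 0.964. The first principal component (25.0% of the variance of the 500 most variable genes) placed White 6 at -32.9 and the other 7 libraries between -0.46 and 12.7. White 6 was more than 2-fold above every other library in 79 genes, against 4 to 14 genes for each of the others. These 79 genes were chosen as high in White 6, so a higher sum there and a fold above 2 follow from that choice. They summed to 20549 CPM in White 6 and to between 4675 and 6655 CPM elsewhere. Most of the sum in White 6 came from a single gene at 16273 CPM, while the median of the 79 genes there was 12.2 CPM. Their median fold over the next highest library was 2.59, and for 27 of the 79 genes that library was White 3. Only 1 of the 79 genes had a symbol (TTC38). The Control libraries were more alike (r = 0.955 to 0.964, median 0.963) than the White libraries (r = 0.940 to 0.966, median 0.949). Without White 6 the median within White was 0.958, so much of this gap came from that library.

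**Figure D1:**
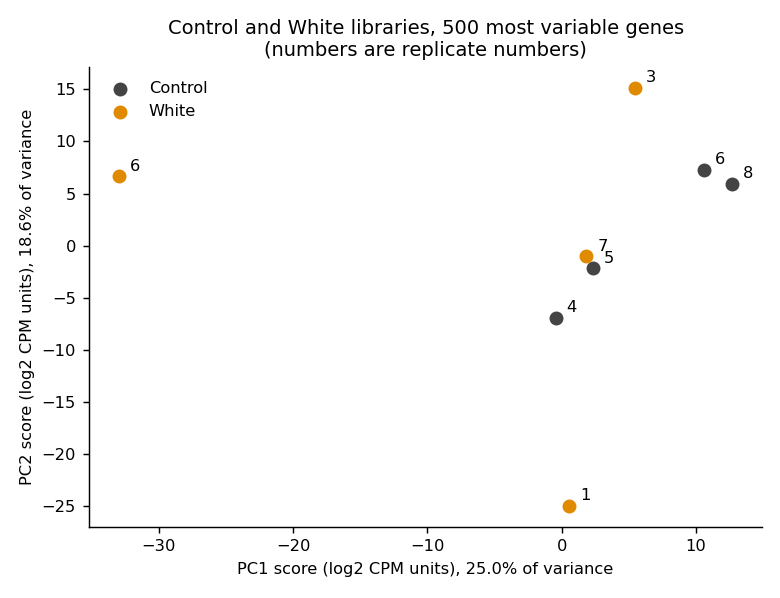
Position of the 4 Control and 4 White libraries on the first principal component (horizontal, 25.0% of the variance) and the second (vertical, 18.6%), from log2 CPM of the 500 most variable genes, with replicate numbers beside the points. White 6 lies at -32.9 on the first component, White 1 at -25.0 and White 3 at 15.2 on the second, while White 7 lies among the Control libraries.

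No gene passed an adjusted p-value (padj) of 0.05 between White and Control in edgeR (0 of 10475 genes, smallest padj 0.173). With p under 0.05 before adjustment there were 254 genes (2.42%) with more counts in White and 315 (3.01%) with fewer. Together these were 569 genes (5.43%), where 524 would be 5% of the genes tested. The ranges of the groups were fully separate in 304 genes (2.9%), 145 of them higher in White (1.38%) and 159 lower (1.52%). With exchangeable labels a gene would have separate ranges with probability 0.0286, the smallest p of the exact permutation test. The share of 2.9% was therefore about that expected with no difference between the groups. DESeq2 called 1 gene at padj under 0.05 (0.00567% of the genes it tested). Leaving out White 6, the library that stood apart, left 0 genes at padj under 0.05 and 538 at p under 0.05, and leaving out Control 6 left 201 lower genes at p under 0.05. The genes below are therefore the leading ones of a comparison without calls in edgeR, and they are described by their values.

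The gene with the smallest p was ENSGALG00000040532, which has no symbol here. It reached 171, 183, 205 and 179 CPM in White 1, 3, 6 and 7, and 109, 114, 105 and 90.9 CPM in Control 4, 5, 6 and 8. Every White library was thus above every Control library, and also above the 7 Green and G3D libraries (69.4 to 137 CPM). The log2 fold change was 0.81 ± 0.15 (SE, padj = 0.173 in edgeR), and DESeq2 gave padj = 0.00356. The two-sided exact permutation test gave p = 0.0286, the smallest value that 4 against 4 libraries allow. Separate ranges fix this value, and the gene was chosen by its p in the same contrast, so it is not separate evidence.

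Among genes with a symbol, the clearest lower values in White were those of PDE4C, PSMG3 and SNX21. PDE4C (ENSGALG00000037029), a phosphodiesterase that degrades cAMP, was at 165, 153, 154 and 171 CPM in White and at 191, 244, 240 and 283 CPM in Control. PSMG3 (ENSGALG00000004203), a chaperone of proteasome assembly, was at 77, 70.2, 80.6 and 80.7 CPM in White and at 117, 133, 127 and 126 CPM in Control. In both genes the groups did not overlap, and the Green and G3D libraries all lay above the White libraries, between 205 and 271 CPM for PDE4C and between 89.0 and 154 CPM for PSMG3. The log2 fold changes were -0.57 ± 0.12 for PDE4C and -0.71 ± 0.16 for PSMG3 (SE, padj = 0.522 in edgeR for both). SNX21, a sorting nexin of endosomal traffic, was at 94.0 to 107 CPM in White and at 122 to 149 CPM in Control (log2 fold change -0.47 ± 0.11, padj = 0.526 in edgeR).

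SC5D (ENSGALG00000037065), the sterol C5-desaturase of cholesterol synthesis, was among the leading lower genes, at 240, 197, 235 and 211 CPM in White and at 268, 292, 313 and 300 CPM in Control. Every White library was below every Control library, and also below the Green and G3D libraries (252 to 340 CPM). The log2 fold change was -0.41 ± 0.11 (SE, padj = 0.568 in edgeR).

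The sterol synthesis list held 25 genes, of which 4 are reported here. All 4 had a negative log2 fold change, 1 of them (SC5D) at p under 0.05, against 3.01% of all genes, and the median was -0.16 against 0.0058 over all genes tested. The other 3 lay near Control. MSMO1, a sterol methyl oxidase, had a log2 fold change of -0.19 ± 0.20, INSIG1, which holds back sterol synthesis in the endoplasmic reticulum, -0.12 ± 0.42, and DHCR7, the last reductase of the pathway, -0.05 ± 0.23 (SE). Without White 6, 2 of the 4 were lower and 2 were higher, and the median was -0.01. It was -0.30 without White 3, -0.25 without White 7 and -0.09 without Control 8, while SC5D stayed at p under 0.05 whichever of the 8 libraries was left out. The summed CPM of the 4 genes was 332 to 375 in White and 422 to 465 in Control, but without SC5D the sums overlapped, at 97.0 to 178 CPM in White and 131 to 168 CPM in Control.

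The remaining leading lower genes with a symbol were ZNF385C, ABHD11, FAM63A, PPP1R16B, SCN8A, FXYD2 and C6orf106. SCN8A (ENSGALG00000043728), the voltage-gated sodium channel Nav1.6 of the axon initial segment, was at 152, 88.3, 126 and 103 CPM in White and at 157, 205, 197 and 152 CPM in Control. The ranges did not overlap, but White 1 and Control 8 were the same to the digits given, and the log2 fold change was -0.60 ± 0.17 (SE, padj = 0.739 in edgeR). ANK3, the ankyrin that anchors such channels, was the only other identified member of the 15-gene sodium channel list and had a log2 fold change of -0.22 ± 0.16 (padj = 0.964 in edgeR). PPP1R16B, a regulatory subunit of protein phosphatase 1, was at 13.8 CPM in White 1, as in Control 4 (13.7 CPM), and at 3.42 to 7.80 CPM in the other White libraries. FXYD2, a regulatory subunit of the sodium pump, had the largest lower fold change of the 11 genes (-1.82 ± 0.53, SE). Its levels were low, at 0.97 to 2.68 CPM in White and 1.94 to 9.36 CPM in Control. It was at 0.91 to 3.41 CPM in Green and G3D, so low values were not particular to White. In 8 of the 11 leading lower genes the groups did not overlap, against 1.52% of all genes, but the genes were chosen by their p in the same contrast.

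Among the genes with a symbol that were higher in White, BTBD19 (ENSGALG00000028978), which codes for a BTB domain protein, had the smallest p. It was at 9.69, 26.4, 15.3 and 19.7 CPM in White and at 6.25, 8.26, 3.89 and 8.53 CPM in Control. The groups did not overlap, although White 1 was close to the highest Control library. The log2 fold change was 1.40 ± 0.30 (SE, padj = 0.522 in edgeR), and the Green and G3D libraries, which are compared with the same Control libraries, lay at 10.9 to 23.5 CPM.

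NOTCH2 (ENSGALG00000002922), a receptor of Notch signalling, was at 29.5, 38.7, 52.1 and 25.2 CPM in White and at 23.7, 15.1, 15.2 and 14.1 CPM in Control. C6orf62 (ENSGALG00000013628) was at 56.4, 64.9, 83.3 and 48.2 CPM in White and at 37.6, 32.6, 36.8 and 34.9 CPM in Control. In both genes White 6 was the highest library and all White libraries exceeded all Control libraries. The log2 fold changes were 1.08 ± 0.25 for NOTCH2 and 0.83 ± 0.19 for C6orf62 (SE, padj = 0.526 in edgeR for both), and without White 6 they were 0.86 and 0.67. NOTCH2 was at 13.9 to 32.2 CPM and C6orf62 at 25.2 to 50.4 CPM in Green and G3D. NOTCH2 was the only one of 20 genes on the Notch list that could be identified.

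RAD23B (ENSGALG00000015540), which takes part in nucleotide excision repair, showed a different order. It was at 19.6, 32 and 23.2 CPM in White 1, 3 and 7 but at 10.2 CPM in White 6, and at 9.72 to 11.6 CPM in Control and 6.37 to 9.28 CPM in Green and G3D. The single library that stood apart thus lay within the Control range, whereas the other 3 White libraries were above all 12 remaining libraries. The log2 fold change was 1.0 ± 0.26 (SE, padj = 0.587 in edgeR). It was 1.22 without White 6 (padj = 0.217), where leaving out each of the 8 libraries gave 0.73 to 1.22. NTNG1, a netrin that guides axons from the membrane, was at 77.7 to 92.3 CPM in White and at 50.8 to 66.6 CPM in Control, with no overlap (log2 fold change 0.55 ± 0.18, padj = 0.835 in edgeR).

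The other leading higher genes were VIP, PNO1, NTM, MOB3A, PDP1, UCN3 and WIF1. PDP1, the phosphatase that activates pyruvate dehydrogenase, was at 18.3 to 24.6 CPM in White and at 8.48 to 18.9 CPM in Control. In Green and G3D it was at 5.17 CPM or more and below every White library. WIF1, a secreted inhibitor of Wnt signalling, was at 38.8 and 29.5 CPM in White 1 and 6. It was at 12.4 and 6.38 CPM in White 3 and 7, within the Control range of 4.77 to 12.5 CPM. Green and G3D libraries had 12.2 to 63.4 CPM of WIF1. Over the 12 leading higher genes the log2 fold changes were between 0.26 and 1.40 with padj from 0.522 to 0.913 in edgeR, and 4 of the 12 had no overlap between the groups, against 1.38% of all genes. These genes too were chosen by their p in the same contrast.

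**Figure D2:**
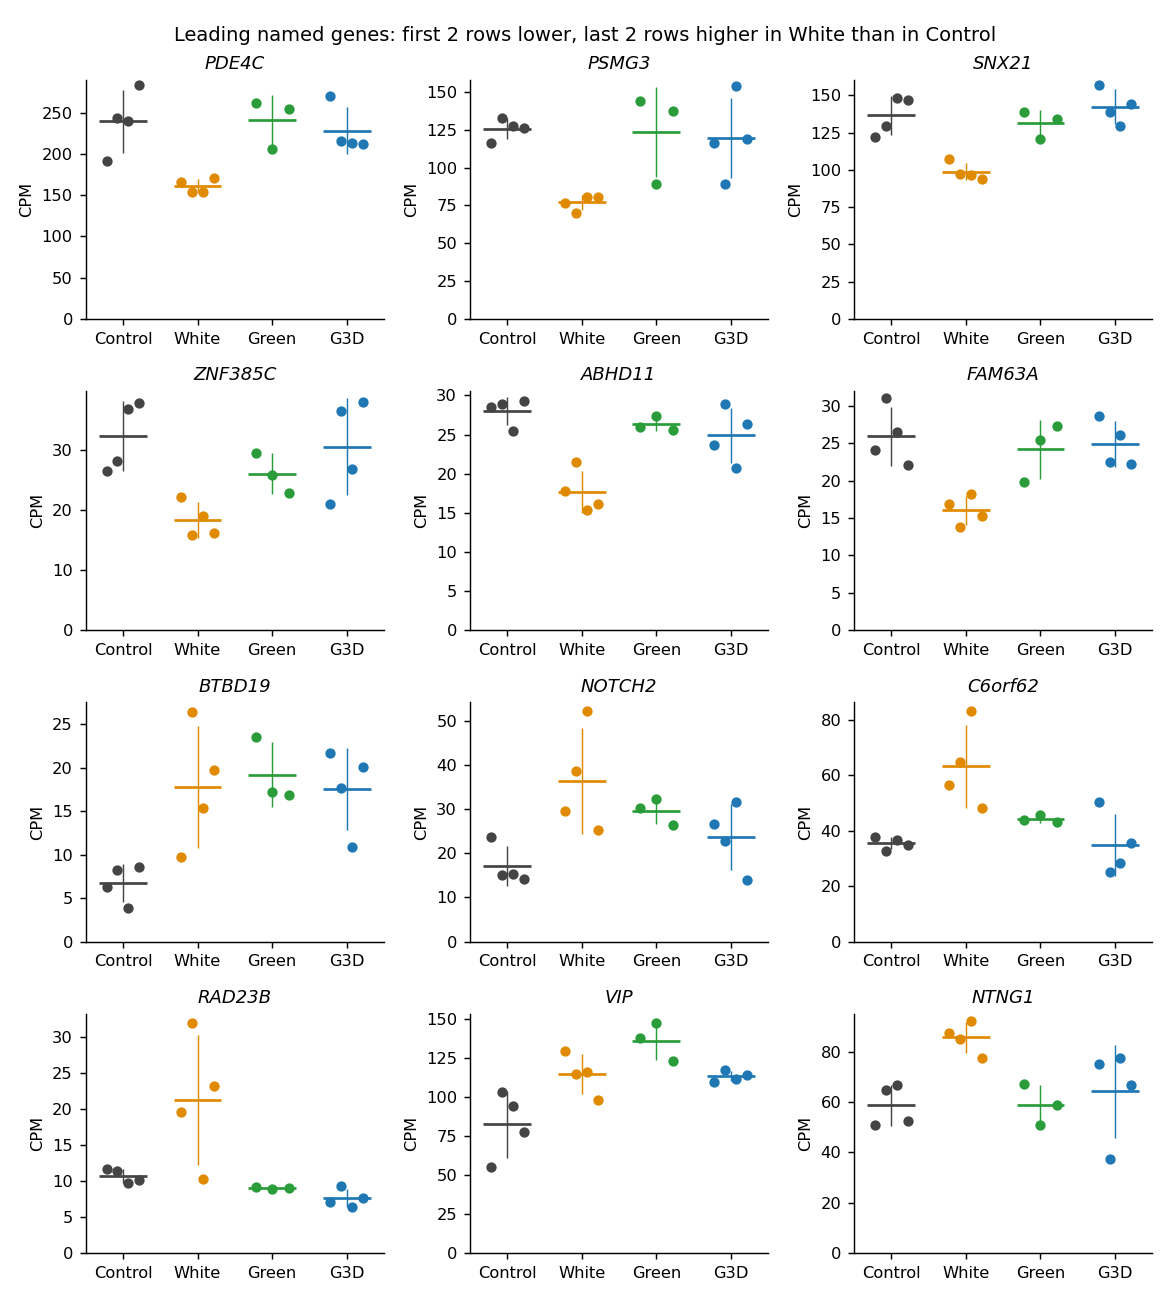
CPM (vertical axes, from 0) of 6 leading genes that were lower in White (first 2 rows) and 6 that were higher (last 2 rows), with one point per library of Control (n = 4), White (n = 4), Green (n = 3) and G3D (n = 4), the mean as a horizontal line and the SD as a vertical line. PDE4C, PSMG3 and SNX21 have all 4 White points below all Control points, while 1 White point of RAD23B, at 10.2 CPM, lies among the Control points.

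Where genes were ordered by fold change instead of by p, among those with a mean of at least 5 CPM, libraries of one group lay far apart. ENSGALG00000012908 was at 145 CPM in White 6, 21.7 in White 3, 6.50 in White 7 and 0.775 in White 1, against 1.71 to 6.01 CPM in Control (log2 fold change 3.91 ± 1.25, SE, padj = 0.843 in edgeR). ENSGALG00000015143 was at 97.5 CPM in White 6 and 28 in White 3 but at 1.36 and 4.21 in White 1 and 7, with 2.02 to 3.18 CPM in Control. Of the lower genes, ENSGALG00000045137 was at 0.731 to 2.52 CPM in White and at 17.8, 18.4 and 10.2 CPM in Control 5, 6 and 8, but at 0.862 CPM in Control 4. Its log2 fold change was -2.75 ± 0.70 (SE, padj = 0.587 in edgeR), and without Control 4 it passed the threshold (-3.13, padj = 0.0454). This gene was also low in Green and G3D, at 0.757 to 3.69 CPM. ENSGALG00000044406 was lower through Control 4 alone, which stood at 54.2 CPM where the other 3 Control libraries were at 1.94 to 6.98 and White was at 3.25 to 5.82 CPM, and its log2 fold change went from -1.98 to 0.05 without that library.

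Hypothalamic peptide genes were on the higher side in White. Of 32 genes on the list, 9 could be identified, and 8 of these had a positive log2 fold change. VIP, PACAP, UCN3 and SST were at p under 0.05, against 2.42% of all genes, and the median was 0.37 against 0.0058 over all genes tested. None passed padj under 0.05. The study had chosen all 9 on these libraries, so the share over all genes is not a like background for them. VIP (ENSGALG00000013604), the peptide that releases prolactin in birds, was at 129, 115, 116 and 98.0 CPM in White and at 54.8, 103, 94.2 and 77.2 CPM in Control. The ranges overlapped (log2 fold change 0.48 ± 0.15, SE, padj = 0.816 in edgeR). In Green and G3D VIP was at 110 to 148 CPM. VIP stayed at p under 0.05 whichever of the 8 libraries was left out, whereas the number of peptide genes at p under 0.05 went from 4 to 1 (VIP) without White 6 or without Control 8, to 2 without White 1 or without Control 4, and to 6 without White 7. It was 1 (VIP) with the 8 libraries alone and 2 (VIP and PACAP) in limma-voom.

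The White libraries divided over these peptides. GAL (galanin), a peptide that promotes feeding, was at 154 and 136 CPM in White 1 and 6 and at 14.1 and 33.7 CPM in White 3 and 7, with 42.5, 42.1, 27.4 and 6.20 CPM in Control. Agrp, the appetite peptide of the infundibular (arcuate) nucleus, was at 33.3 and 10.5 CPM in White 1 and 6, at 0.41 CPM in White 3 and at 0 in White 7, with 0 to 3.00 CPM in Control. UCN3 (urocortin 3), a ligand of the type 2 CRF receptor, was at 6.98 and 12.4 CPM in White 1 and 6, at 1.09 in White 3 and at 5.66 in White 7, with 1.41 to 5.07 CPM in Control. In each of these genes White 1 and 6 were the highest White libraries and above all Control libraries. White 3 and 7 lay within the Control range for GAL and Agrp, while for UCN3 White 3 was below it and White 7 above it. The mean of GAL was 95.4 CPM in Green and 120 CPM in G3D, and UCN3 was at 6.83 to 8.45 CPM in these libraries. Agrp was at 0.50 CPM in Green 2 and 0.76 CPM in G3D 7, but at 27.4 to 57.3 CPM in the other Green and G3D libraries. High levels of these genes, and for Agrp a division within a group, were thus also seen outside White.

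SST (somatostatin), which inhibits growth hormone release, was at 943 and 1021 CPM in White 1 and 6 and at 769 and 678 CPM in White 3 and 7 (Control 616 to 844 CPM). PACAP, a pituitary adenylate cyclase activator that also releases growth hormone in birds, was at 182 and 208 CPM in White 1 and 6 and at 132 and 133 CPM in White 3 and 7 (Control 92.9 to 160 CPM). The tachykinin precursor gene tac1 also had White 1 and 6 above White 3 and 7, at 203 and 188 against 144 and 124 CPM. In Green and G3D SST was at 968 to 1373 CPM, PACAP at 171 to 199 CPM and tac1 at 174 to 249 CPM. The glutamate decarboxylases, which make the transmitter GABA, did not have White 1 and 6 above White 3 and 7. GAD67 divided in the opposite direction, at 114 and 126 CPM in White 1 and 6 and at 194 and 146 CPM in White 3 and 7. GAD2 was highest in White 6 (25.8 CPM) and lowest in White 1 (13.0 CPM). In Green and G3D the means were 82.3 and 81.1 CPM for GAD67 and 13.5 and 9.98 CPM for GAD2.

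**Figure D3:**
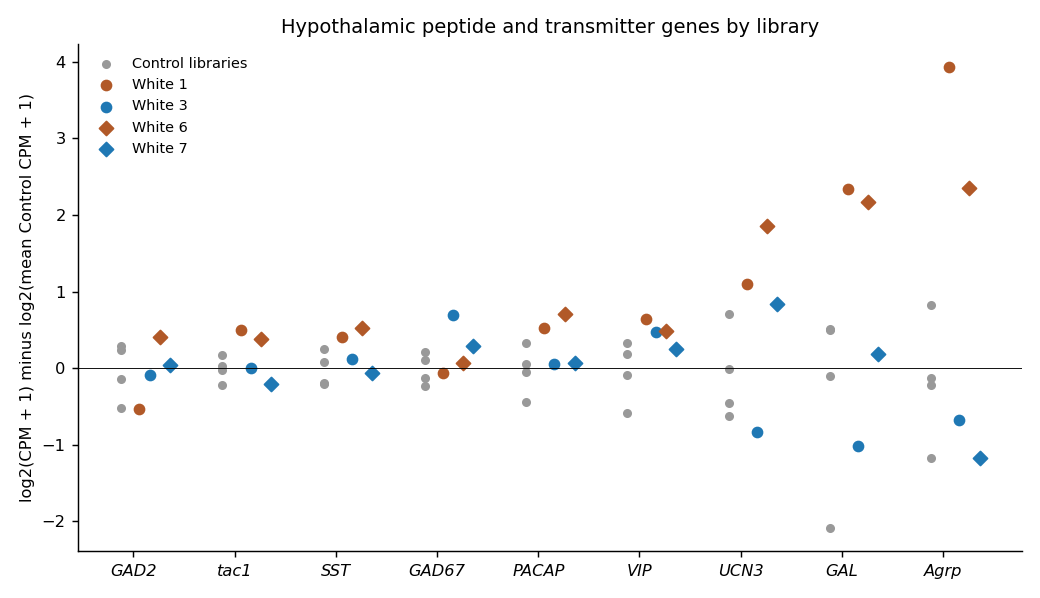
The 9 identified peptide and transmitter genes (horizontal) in each Control library (grey) and in White 1, 3, 6 and 7, as log2(CPM + 1) minus log2 of the mean Control CPM plus 1 (vertical). White 1 and 6 (brown) lie above White 3 and 7 (blue) in 7 of the 9 genes, with the largest gaps in GAL and Agrp.

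There are 3 ways to divide 4 White libraries into 2 and 2, and all 3 were examined. The division of White 1 and 6 against White 3 and 7 also separates the libraries by total count. The totals were 5056447 and 3944530 in White 1 and 6, and 6731702 and 8077895 in White 3 and 7. The part of depth in this division was not tested. White 1 and 6 were both above White 3 and 7 in 21.6% of all genes, and 1007 genes (9.61%) differed at p under 0.05 between these subgroups, 3 of them at padj under 0.05 in edgeR (smallest padj 0.0264). For White 1 and 3 against White 6 and 7 the number at p under 0.05 was 389 (3.71%), and for White 1 and 7 against White 3 and 6 it was 367 (3.50%), with 0 genes at padj under 0.05 in both. White 1 and 6 were both above White 3 and 7 in 7 of the 9 peptide genes and both below them in 1 (GAD67). VIP is among the 7, although White 6 (116 CPM) and White 3 (115 CPM) were nearly equal in it (log2 difference of the pairs 0.20, padj = 0.801 in edgeR). White 1 and 3 were both above White 6 and 7 in 0 of the 9 and both below in 1, and for White 1 and 7 against White 3 and 6 both counts were 0. GAL had the smallest p of the 9 (log2 difference 2.60, padj = 0.153 in edgeR). ENSGALG00000034236, the first of the 3 called genes, was at 19.0 and 23.6 CPM in White 1 and 6 and at 2.60 and 4.94 CPM in White 3 and 7, with 5.27 to 10.5 CPM in Control.

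Among tissue and cell type markers, SIX3, STMN2 and SNAP25 differed at p under 0.05 between White 1 and 6 and White 3 and 7. None of them passed padj under 0.05 in edgeR. Of all genes, 9.61% were at p under 0.05 in this division. SIX3, a transcription factor of the anterior hypothalamus and forebrain, was at 193 and 205 CPM in White 1 and 6, at 114 and 130 CPM in White 3 and 7 and at 111 to 140 CPM in Control (log2 difference 0.71, padj = 0.168 in edgeR). The mean of SIX3 was 210 CPM in Green and 216 CPM in G3D. SOX14, the other identified hypothalamus marker, was at 13.0 and 17.8 against 26.4 and 13.2 CPM. Of the 13 hypothalamus markers 2 could be identified, with a summed level of 140 to 222 CPM in White and 122 to 159 CPM in Control. The neuron markers SNAP25, STMN2 and ELAVL2 (3 of 9 identified) summed to 2863 to 3445 CPM in White and 2514 to 3314 CPM in Control. Within White they differed in direction, since STMN2 was higher in White 1 and 6 than in White 3 and 7 (log2 difference 0.44, padj = 0.472 in edgeR) and SNAP25 was lower (-0.55, padj = 0.411 in edgeR). The telencephalon marker EMX2 (1 of 7) was at 19.7 to 28.1 CPM in White and at 20.4 to 30.6 CPM in Control. Oligodendrocyte markers UGT8 and Enpp2 (2 of 10) summed to 461 to 702 CPM in White and 451 to 1267 CPM in Control. Astrocyte and tanycyte markers VIM and CRYM (2 of 10) summed to 279 to 382 CPM in White and 268 to 318 CPM in Control. Meningeal COL1A2 and FMOD (2 of 7) summed to 42.1 to 57.8 CPM in White and 43.6 to 62.8 CPM in Control. The 4 identified transcripts of the mitochondrial genome summed to 3837 to 4341 CPM in White and 3649 to 6087 CPM in Control. Their list held 22 symbols, some of them other names of the same gene. The ependymal gene CFAP45 (1 of 6) was at 16 to 25.6 CPM in White and at 13.9 to 18.1 CPM in Control. SIX3 was the only one of these markers at p under 0.05 between White and Control (padj = 0.913 in edgeR), which it missed without White 1, White 6, Control 4, Control 6 or Control 8, and also in DESeq2, in limma-voom, with the 8 libraries alone and without robust shrinkage. Thalamus, pituitary, microglia, endothelium and red blood cell lists had no identified member, so those cells were not examined. In a tissue lysate fewer cells of a type and less RNA per cell cannot be told apart, and the part of dissection or cell makeup in the peptide values was not tested.

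Other lists gave few values. The growth and leptin axis list (3 of 24 identified) had no member at p under 0.05. The log2 fold changes were 0.16 ± 0.17 for the receptor IGF2R, -0.21 ± 0.19 for the binding protein IGFBP5 and 0.31 ± 0.29 for LEPROT, a regulator of leptin receptors at the cell surface (SE). IGF2R was at 31.4 to 41.8 CPM in White and at 30.7 to 31.3 CPM in Control, with no overlap. The heat and glucocorticoid list (3 of 21 identified) also had none, although HSP90B1, a chaperone of the endoplasmic reticulum, was at 362 to 432 CPM in White and at 310 to 331 CPM in Control with no overlap (log2 fold change 0.33 ± 0.20, padj = 0.947 in edgeR). PDE6G, a subunit of the photoreceptor phosphodiesterase and the only identified member of 23 light-sensing and photoperiod genes, was at 8.20 to 12.8 CPM in White and 8.53 to 14.3 CPM in Control. The circadian clock, activity-induced and CREB lists had no identified member.

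To ask whether the White chicks resemble each other, the group was divided by replicate number into White 1 and 3, set against Control 4 and 5 (subgroup A), and White 6 and 7, set against Control 6 and 8 (subgroup B), so that no library was shared. This order of numbers is arbitrary. Over the 10475 genes the log2 fold changes of the subgroups had a Pearson correlation of 0.0167 and a Spearman correlation of 0.0450, and 52.3% of the genes had the same sign. With one library left out the Spearman correlation was between -0.035 (without White 7) and 0.103 (without White 6). These are descriptions across genes, which are not independent replicates. Among the 2607 genes with a mean of at least 50 CPM the correlation was 0.0663 and the share with the same sign 54.6%. The median absolute log2 fold change was 0.229 in subgroup A and 0.262 in subgroup B. It was 0.237 between the White subgroups themselves and 0.242 between the Control subgroups (477 genes or 4.55% at p under 0.05), so the median difference between White and Control was of the same size as that between chicks of one treatment.

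**Figure D4:**
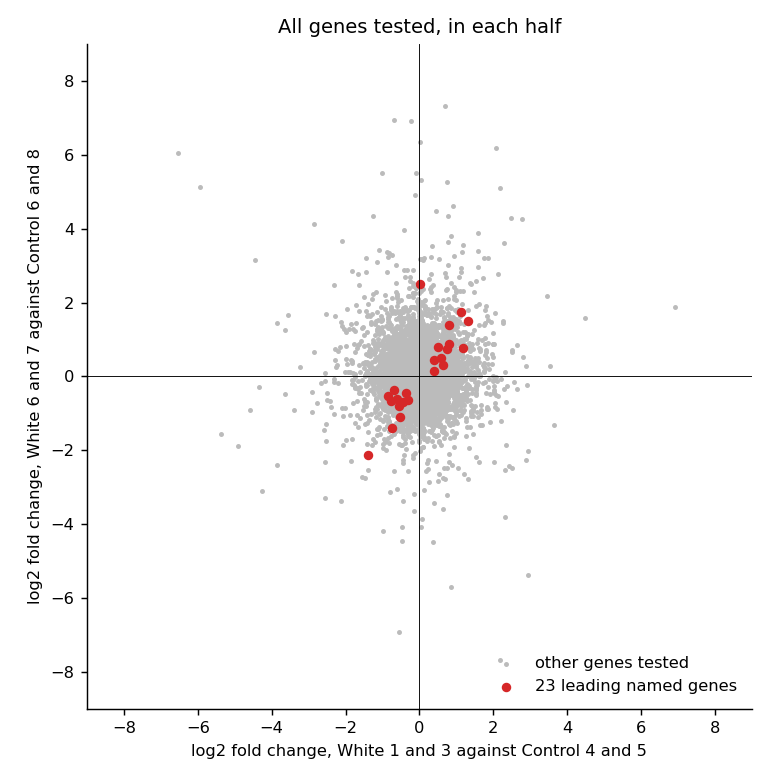
Log2 fold change of the genes tested in White 1 and 3 against Control 4 and 5 (horizontal) and in White 6 and 7 against Control 6 and 8 (vertical), with the 23 leading named genes in red. The cloud of all genes has no slope (r = 0.0167), and the red points, which were chosen on all 8 libraries, lie in the quadrants of equal sign.

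Subgroup A had 333 genes at p under 0.05 (3.18%) and subgroup B had 639 (6.10%). They shared 29, which were 8.71% of the first list and 4.54% of the second, and 18 of the 29 had the same sign. At padj under 0.05 edgeR called 0 genes in subgroup A and 1 in subgroup B (0.00955%). This gene, ENSGALG00000036044, was at 28.5 and 26.7 CPM in White 6 and 7 against 101 and 79.1 CPM in Control 6 and 8 (log2 fold change -1.70, padj = 0.0143), but at 37.0 and 49.5 CPM in White 1 and 3 against 42.6 and 34.9 CPM in Control 4 and 5 (0.16). The Control libraries of subgroup B were above those of subgroup A in this gene. Leaving out White 7 raised the calls of subgroup B from 1 to 20, and leaving out White 6, Control 6 or Control 8 left 0. Without White 7 this arm was White 6 alone, the library that stood apart, and its spread was taken from the other groups.

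Genes chosen in one subgroup were then read in the other, whose fold changes had no part in the choice. The p-values of both subgroups came from a single fit on all 15 libraries and share its estimate of the spread. The numbers of genes at p under 0.05 in both subgroups, here and above, are therefore not from independent tests. Of the 100 genes with the smallest p in subgroup A, 61 had the same sign in subgroup B, where their median log2 fold change in the direction of subgroup A was 0.08 against 1.0 in subgroup A itself, and 6 had the same sign at p under 0.05. Of the 100 genes with the smallest p in subgroup B, 65 had the same sign in subgroup A, with a median of 0.06 against 1.06 in subgroup B, and 5 had the same sign at p under 0.05. With one library left out these medians moved, to between -0.06 (without White 7) and 0.24 (without White 6) for the genes of subgroup A and to between -0.13 (without White 1) and 0.21 (without White 3) for those of subgroup B. With all libraries, 52.3% of all genes tested had the same sign. Their median log2 fold change in subgroup B, in the direction of subgroup A, was 0.02. At p under 0.05, in either sign, were 6.10% of all genes in subgroup B and 3.18% in subgroup A. These shares count both signs, so they are not a like background for the 6 and 5 genes of the same sign. ENSGALG00000030824 led subgroup A, at 62 and 94.1 CPM in White 1 and 3 against 220 and 214 CPM in Control 4 and 5 (log2 fold change -1.47), and had a log2 fold change of 0.01 in subgroup B, where White 6 and 7 were at 211 and 134 CPM.

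The difference between the fold changes of the subgroups was itself tested, and 426 genes (4.07%) had p under 0.05 while 0 passed padj under 0.05 in edgeR (smallest padj 0.287). The smallest p was that of ENSGALG00000036044 (2.74e-05). ENSGALG00000039037 had opposite signs, with a log2 fold change of 2.89 in subgroup A and -2.27 in subgroup B, and ENSGALG00000032239 went from 0.69 to -1.53. In both genes the Control libraries were the more divided, at 0.862 and 4.40 against 26.2 and 18.3 CPM for ENSGALG00000039037. UCN3 was the only one of the 23 leading named genes whose subgroups differed at p under 0.05 (0.01 in subgroup A, 2.49 in subgroup B, padj = 0.999 in edgeR).

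The 23 leading named genes had the same sign in both subgroups, which their choice over all 8 libraries favours. Of the 11 lower genes 5 were at p under 0.05 in both subgroups and 6 in one, and of the 12 higher genes 5 were in both and 6 in one. Of all 10475 genes tested 29 were at p under 0.05 in both subgroups. The choice over the same 8 libraries favours the counts of the leading genes too, so they are not a replication. SCN8A had a log2 fold change of -0.60 in subgroup A and -0.61 in subgroup B. PSMG3 was at -0.76 and -0.65, and C6orf62 at 0.79 and 0.87. ZNF385C, PPP1R16B and FXYD2 were further from 0 in subgroup B than in subgroup A, and VIP was at 0.63 in subgroup A and 0.32 in subgroup B.

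**Figure D5:**
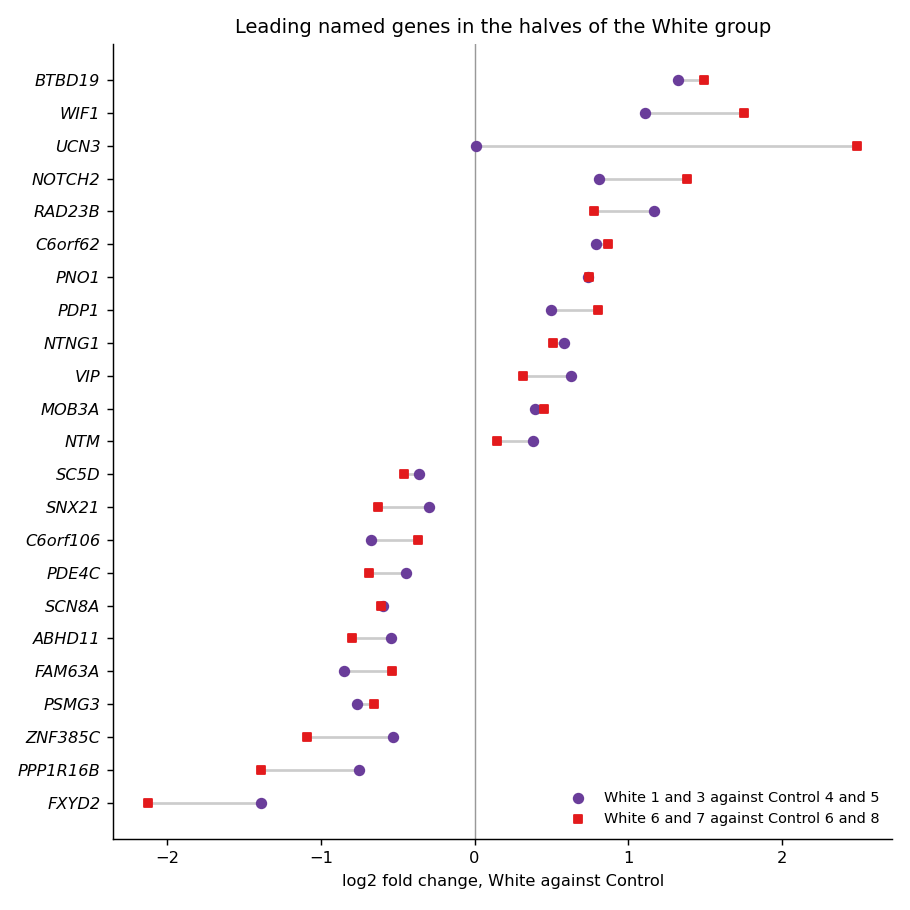
Log2 fold change (horizontal) of the 23 leading named genes (vertical) in White 1 and 3 against Control 4 and 5 (circles) and in White 6 and 7 against Control 6 and 8 (squares). All 23 lie on the same side of 0 in both, SCN8A at -0.60 and -0.61, and UCN3 shows the widest gap, from 0.01 to 2.49.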

How the data were processed

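RNA of the hypothalamus from 15 chicks was measured by bulk MARS-Seq. The authors trimmed reads with Cutadapt, mapped them with STAR to 3′ UTR regions of the chicken genome (GRCg6a), marked duplicates by molecular tag and counted reads per gene with HTSeq. The deposited values are raw counts per Ensembl gene for 24356 genes. Reads are confined to 3′ ends, and reads of overlapping genes could not be told apart.

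Groups and replicate numbers came from the labels. In R 4.3.3, edgeR 4.0.16 (filterByExpr, TMM, robust quasi-likelihood) was fitted to all 15 libraries, with Benjamini-Hochberg adjustment over 10475 genes and a threshold of 0.05. DESeq2 1.42.0 and limma-voom (limma 3.58.1) were alternatives. Log2 CPM used a prior count of 2. An exact permutation test (two-sided, 4 against 4) was run for single genes. The fits were tested on simulated data. Named genes were the 12 per direction with the smallest p that had a symbol, up to 2 per direction without one, the 5 per direction with the largest fold change at a mean of at least 5 CPM, any gene called by DESeq2, list members at p under 0.05 or with the 2 highest levels, and the 5 leading genes per direction of each subgroup and of their difference. One lower gene that met the rule is not reported here, also as a list member. GAL, ENSGALG00000034236 and TTC38 were named after their values were seen, and other list members are given to account for the lists. The genes, lists and divisions were chosen with earlier results of these data known. Symbols came from the study's supplementary table and no other values of it were used.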

Additional observations from a re-analysis of the deposited data

Results flagged for a closer look

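In 98 groups of 4 libraries (48 named or listed genes and the total counts, each in Control and in White), 3 groups had a single library further from the rest than Dixon's 95% limit allows, where chance flags about 1 in 20 groups. The limit was applied to log2 CPM for genes and to plain counts for the totals, while the values below are in CPM. NOTCH2 was at 23.7 CPM in Control 4 and at no more than 15.2 CPM in the other Control libraries. ENSGALG00000004778 was at 3.32 CPM in Control 5, and the nearest other Control library was at 19.4 CPM. IGF2R was at 41.8 CPM in White 3, with the next White library at 33.0 CPM.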

How the results depend on the processing

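No gene passed padj under 0.05 with other scalings, a stricter filter, no robust shrinkage, limma-voom or the 8 libraries alone (0 in each). One higher gene, ENSGALG00000040532, passed in DESeq2 and in edgeR over all genes with at least 1 count (1 in each). The latter gave 417 higher genes of 17647 tested at p under 0.05, a share similar to the 254 of 10475 above. White and Control share only replicate number 6, whose libraries deviated together at r = 0.055. White and Control libraries with different numbers gave r from -0.144 to 0.153. The only shared number therefore cannot decide whether the numbers pair the samples. The replicate block called 4 lower genes, ENSGALG00000026698 among them, with 324 higher and 342 lower genes at p under 0.05. White 3, Control 4 and Control 8 have replicate numbers that no other library of the series has. The block therefore left these libraries without weight in the contrast, and its results do not rest on all 8 libraries. With the block 3 peptide genes (Agrp, GAL and UCN3) were at p under 0.05, and VIP and SIX3 were not. With each White and Control library left out in turn, 0 to 1 lower genes were called (1 without Control 4), between 201 (without Control 6) and 353 lower genes had p under 0.05, and 401 (without Control 6) to 710 (without Control 4) had it in all. The correlation of the subgroups was 0.057 for White 1 and 7 against 3 and 6, 0.053 with the Control subgroups exchanged, 0.055 with at least 10 counts in every library, 0.044 with the 8 libraries alone, and -0.036 (without White 1) to 0.050 (without Control 8) with one library left out. Dividing White as 1 and 6 against 3 and 7 gave 49.7% of genes with the same sign, 52 of the 100 genes chosen in the first subgroup, 0 genes called in the second, 3 between the White subgroups and 1 for their difference. White 1 and 7 against 3 and 6 gave 68 of 100 and 0 genes in the second subgroup. With exchanged Control subgroups or 8 libraries, 56 of the 100 genes chosen in the second subgroup kept their sign, with 0 genes called there. With one library left out the same-sign share was 48.6% to 55.5%, the chosen genes with the same sign 44 to 72 and 41 to 75, and the calls 0 to 1 in the first subgroup, 0 to 20 in the second (20 without White 7), 0 to 2 between the White subgroups and 0 to 2 for the difference. The cause of these shifts was not tested. Leaving out single libraries for the subgroups, and the genes of at least 50 CPM, were added after seeing the data. With 4 chicks a group, differences below the spread between chicks were not detectable.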
